A study of Homo sapiens with 1 sample.

Results

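The MYC gene family and the PVT1 locus were described by the chromatin accessibility peaks around 5 genes, MYC, PVT1, MYCN, MYCL and MAX. A peak was taken when its summit lay inside one of these genes or within 500 kb (MYC and PVT1) or 100 kb (MYCN, MYCL and MAX) of either end of the gene record in hg38. This rule took 128 of the 88615 peaks on the 24 primary chromosomes. The windows of MYC and PVT1 overlapped and are described as 1 window, which held 104 peaks, of which 85 belonged to both genes. The MYCL window held 15 peaks, the MAX window 9 and the MYCN window 0.

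The assay was ATAC-seq, which marks open chromatin by the sites where Tn5 transposase can insert adapters. It was run on 786-O, a human cell line established from a clear cell renal carcinoma, with an empty vector that served as the control for DPF3a overexpression. The labels give this control, although the names of the peaks carry the tag WT. There was 1 library and no replicate, so no comparison between groups was made, no p-value is given, and the values describe this library alone. The value of a peak is its fold enrichment, the pileup of reads over the summit plus 1 divided by the genome-wide background plus 1. Pileups ran from 9 to 300 over a background of 0.941, and the intervals given beside folds are exact Poisson 95% intervals of the pileup, which cover counting error only. Of the marker genes of renal epithelium and clear cell carcinoma, 5 of 6 had a promoter peak (exact 95% interval, 35.9% to 99.6%). This interval included the 61.4% of all protein-coding genes that had one. The folds were 31.9 at PAX8, 22.7 at PAX2, 27.3 at the canonical promoter of KRT8, 8.24 at KRT18 and 21.6 at EPAS1. Another KRT8 start had a peak with a fold of 43.3, 44831 bp from its canonical TSS and inside the KRT18 gene record. CA9 had no promoter peak, and neither had the 5 markers of leukocytes, endothelium and hepatocytes (PTPRC, CD3E, PECAM1, CDH5 and ALB).

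MYC, MYCN and MYCL encode basic helix-loop-helix leucine zipper transcription factors that bind DNA as dimers with MAX, mostly at the E-box CACGTG, and drive genes of growth and ribosome production. MAX also pairs with the MXD proteins, MNT and MGA, which repress such genes, so the partners compete for MAX. PVT1 is a long noncoding RNA gene downstream of MYC that is often gained together with it in tumours, and its body is known to hold enhancers of MYC in several cell types.

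The promoter of MYCN, where no peak was found, and the summit of the MYCL promoter peak are shown because they carry the contrast between an empty and an open promoter of the family. Both are given 5′ to 3′ on the strand named. The 250 bases before the MYCN start (chr2:15940300-15940549, plus strand, GRCh38.p14, RefSeq) held 57.2% G and C and 11 CpG dinucleotides. The 116 bases at the summit of the MYCL promoter peak (chr1:39902025-39902140, minus strand, hg38) lay upstream of the canonical start and outside annotated exons. The MYCL gene record runs on to 39902256, so this stretch lay inside the record and not upstream of every start. The nearest start was 131 bp from the summit.
MYCN promoter: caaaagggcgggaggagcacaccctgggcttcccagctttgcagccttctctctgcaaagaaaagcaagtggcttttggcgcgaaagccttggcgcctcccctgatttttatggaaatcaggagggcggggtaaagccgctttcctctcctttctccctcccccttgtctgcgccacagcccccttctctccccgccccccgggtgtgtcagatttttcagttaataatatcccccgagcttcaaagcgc
MYCL promoter summit: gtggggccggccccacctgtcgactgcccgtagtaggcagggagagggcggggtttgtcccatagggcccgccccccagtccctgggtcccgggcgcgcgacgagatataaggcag

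Another 3 summits of the MYCL window are shown, each with 50 bases to both sides on the plus strand of hg38, because they are the highest peak of that window and examples of its motif matches. The highest peak (chr1:39934610-39934710) had 34.7% G and C and 0 CpG dinucleotides, compared with 71.6% and 10 in the promoter stretch above. The AP-1 match (chr1:39816849-39816949) and the CTCF match (chr1:39893292-39893392) carry the motif in capitals.
MYCL window, highest peak: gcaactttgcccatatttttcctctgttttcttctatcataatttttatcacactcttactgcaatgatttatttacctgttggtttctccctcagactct
MYCL window, AP-1 match: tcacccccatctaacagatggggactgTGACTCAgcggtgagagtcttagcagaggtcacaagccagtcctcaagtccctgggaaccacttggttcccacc
MYCL window, CTCF match: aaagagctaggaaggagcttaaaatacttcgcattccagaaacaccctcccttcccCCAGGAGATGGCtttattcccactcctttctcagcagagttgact

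To ask whether the promoters of the family were accessible, the summits from 1 kb upstream to 100 bp downstream of any transcription start site (TSS) of each gene were examined. Of the 4 protein-coding genes, MYC, MAX and MYCL had a promoter peak and MYCN had none, where 61.4% of all protein-coding genes had one. PVT1 also had one, where 21.9% of all lncRNA genes did. By the highest promoter fold the order was PVT1, MYC, MAX, MYCL. The maximum was taken over 132 start positions in PVT1, 14 each in MYC and MAX and 3 in MYCL. At its first TSS PVT1 had a fold of 22.7 (16.6 to 30.4), below MYC. It was also below MAX, but those intervals overlapped. For the highest promoter folds the intervals of PVT1 and MYC did not overlap, those of MYC and MAX did, and those of MAX and MYCL did not.

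MYC (ENSG00000136997.22) lies on the plus strand of chromosome 8, from 127735434 to 127742951. Its promoter peak, at 127734971 to 127739497, was 4527 bp wide, with the summit 45 bp upstream of the canonical TSS. The pileup at the summit was 81, which gives a fold of 42.3 (33.7 to 52.4). That was higher than 93.4% of all peaks and than 78.5% of the promoter folds of protein-coding genes that had one. The neighbouring peak, at 127733883 to 127734809, peaked 2.07 kb upstream of the MYC TSS, in the promoter of the antisense lncRNA gene CASC11, and a fold of 54.1 (44.3 to 65.4). The interval of this peak and that of the MYC promoter peak overlapped. Just past the 3′ end of MYC, a peak at 127741650 to 127743757 reached a fold of 47.9 (38.7 to 58.7), whereas the other peak inside MYC, 3600 bp downstream of the TSS, had a fold of 6.70 (3.71 to 11.3). The gene was thus flanked on both sides by summits whose intervals overlapped that of its own promoter.

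PVT1 (ENSG00000249859.14) runs on the plus strand from 127794526 to 128187101, over 393 kb, and its 190 annotated transcripts start at 132 positions. The peak at its first TSS, at 127793759 to 127796514, had its summit 150 bp past the canonical TSS and a fold of 22.7 (16.6 to 30.4). This was lower than the MYC promoter peak, whose interval it did not meet. The highest promoter fold of PVT1 belonged to an internal TSS, with the summit 59.9 kb downstream of the first, at 127853513 to 127855717. There the fold was 89.1 (76.4 to 103), higher than 99.1% of the promoter folds of lncRNA genes, without allowance for the number of starts. With only the canonical transcript considered, PVT1 had no promoter peak, since the summit at its first TSS lay beyond the 100 bp limit.

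MAX (ENSG00000125952.21), the shared partner of the family, lies on the minus strand of chromosome 14, from 65006174 to 65102695. Its promoter peak, at 65102364 to 65103268, peaked 40 bp before the canonical TSS, with a pileup of 64 and a fold of 33.5 (25.9 to 42.6). The fold was higher than 65.1% of protein-coding promoter folds and than 88.8% of promoter peaks on chromosome 14.

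MYCL (ENSG00000116990.12), first known from lung cancer, lies on the minus strand of chromosome 1, from 39895428 to 39902256. Its promoter peak, at 39900924 to 39902613, peaked 208 bp before the canonical TSS, with a pileup of 30 and a fold of 16.0 (10.9 to 22.6). The promoter of MYCL was therefore open but low, as the fold was higher than 24.5% of protein-coding promoter folds. Its RefSeq promoter of 300 bases had 74.7% G and C and 43 CpG dinucleotides. Of the 1540 protein-coding genes within 2 percentage points of that G and C share, 77.0% had a promoter peak.

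MYCN (ENSG00000134323.13), best known from neuroblastoma and embryonic tissues, lies on the plus strand of chromosome 2, from 15940550 to 15947007. No summit lay in the gene or within 100 kb of it. The nearest upstream peak was 129 kb away, at 15811372 to 15811773, with a fold of 9.28 (5.62 to 14.5), and the nearest downstream peak was 197 kb away, at 16137407 to 16137751, with a fold of 7.73 (4.46 to 12.6). The peak-free stretch between them measured 326 kb and held 10 genes whole, among them MYCN, its antisense gene MYCNOS, MYCNUT and GACAT3. The distance between the summits on its 2 sides was greater than 99.0% of the 88591 distances between neighbouring summits. Their median was 11.8 kb, and 854 were as long as the distance around MYCN or longer. This share counts distances and not bases, and a chosen gene falls more often into a long stretch than into a short stretch. How rare such a stretch is around a gene is therefore not given by the share. The rest of the arm held 32.4 peaks per Mb, and the MYCN window spanned 206 kb. The MYCN promoter had 58.7% G and C and 14 CpG dinucleotides over the 300 bases of RefSeq, where the median promoter had 63.0% and 35.7% of promoters had less than MYCN. The MAX promoter had 63.3%. Of the 1946 protein-coding genes within 2 percentage points of the MYCN share, 1264 (65.0%) had a promoter peak. A list of peaks gives no value where no peak is listed, so the level at MYCN is not known beyond the absence of a listed peak. The lowest score in the list was 52, and the numbers in the peak names skip. The paper's methods state a more lenient limit for calling ATAC-seq peaks, so weaker peaks may have been called and left out. The peak-free stretch and the counts of peaks hold for this list only.

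**Figure D1:**
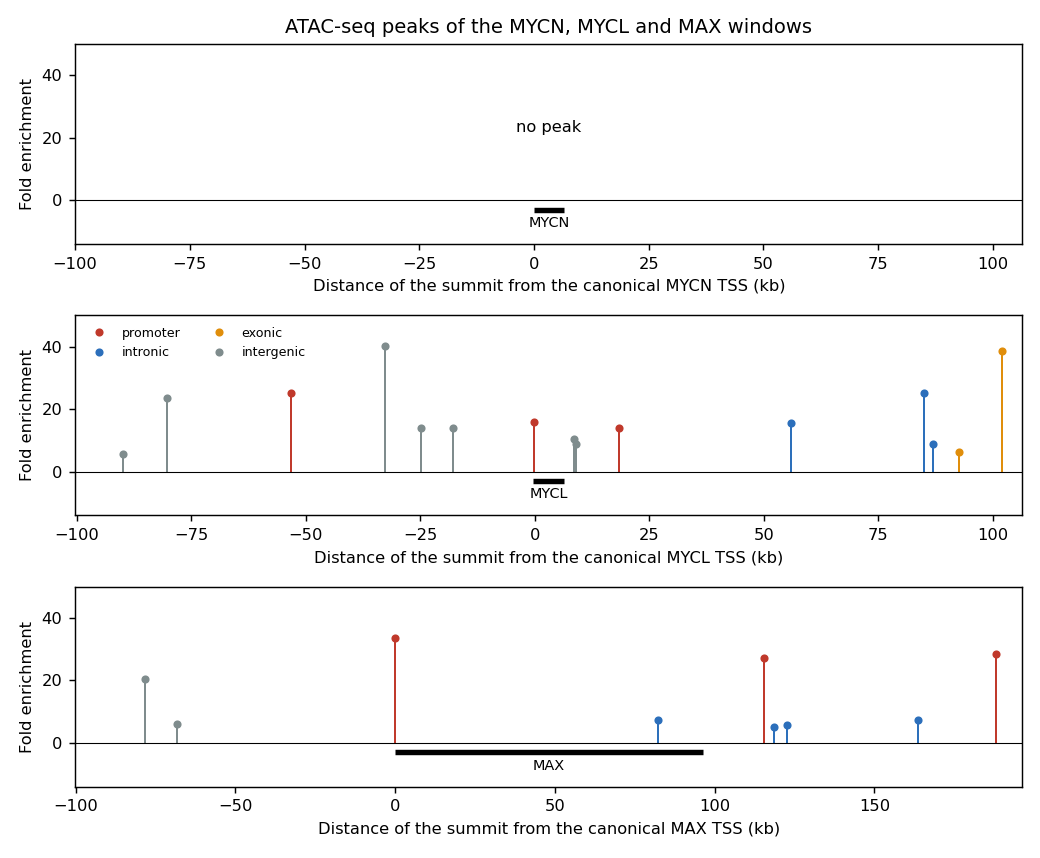
Stems give the fold enrichment of each peak against the distance of its summit from the canonical TSS in kb (negative, upstream) for the MYCN, MYCL and MAX windows, coloured by class, with the gene record as a black bar. The MYCN window is empty, the highest MYCL summit (fold 40.2) is 32.7 kb upstream of the TSS, and the highest MAX summit (33.5) is at the promoter.

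The peaks around MYC and PVT1 were then followed across the 1452 kb window. The peak density was 71.6 per Mb (95% counting interval, 58.5 to 86.8), compared with 38.4 per Mb over the rest of the long arm of chromosome 8 and 30.2 per Mb over all primary chromosomes. The median fold of 11.6 was close to the 10.8 of all peaks, but the upper end was longer. A fold of at least 50 was reached by 22 of the 104 peaks (21.2%), where 3.94% of all peaks reached it. The limit of 50 was chosen after the values were seen. Peaks of at least 2 kb made up 13 of the 104 (12.5%), where 2.89% of all peaks were as wide.

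At promoters lay 10 of the 104 summits (9.62%), where 19.4% of all peaks and 12.5% of those over the rest of the arm did. Of the others 72 were in introns, 7 in exons and 15 between genes.

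The high peaks were unevenly spread, and 20 of the 22 lay inside the PVT1 gene record. The gene record held 63 peaks, or 160.5 per Mb (123.3 to 205.3), with a median fold of 19.1 (8.76 to 33.5). The widths of its peaks summed to 17.9% of its length, and those of all peaks to 2.10% of the sequenced bases. The rest of the window held 41 peaks at 38.7 per Mb, a density close to that of the rest of the arm, with a median fold of 10.3 and 2 peaks (4.88%) at a fold of at least 50. By position, the 500 kb upstream of MYC held 13 peaks, the stretch between MYC and PVT1 held 3, and the 500 kb downstream of PVT1 held 23.

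**Figure D2:**
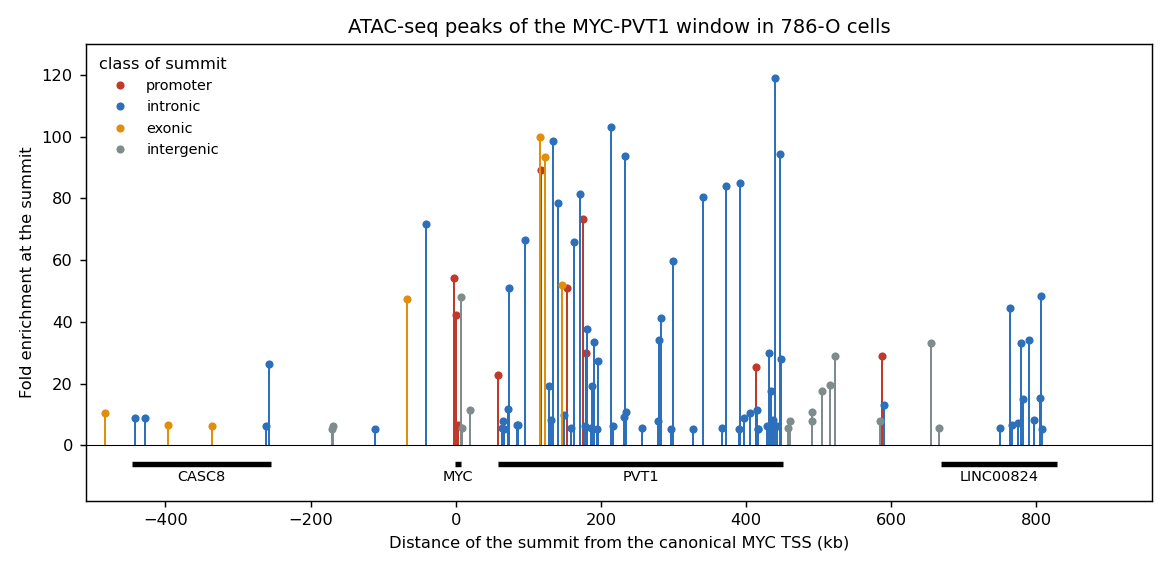
Stems give the fold enrichment of the 104 peaks of the MYC-PVT1 window against the distance of the summit from the canonical MYC TSS in kb, coloured by class, with black bars for 4 gene records. The tallest stems stand over PVT1, up to a fold of 119 at 441 kb, while the MYC promoter reaches 42.3.

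Along 100 kb steps from the MYC TSS, the count of peaks was 13 from 0 to 100 kb, 22 from 100 to 200 kb, 11 from 200 to 300 kb, 7 from 300 to 400 kb and 18 from 400 to 500 kb. The number with a fold of at least 50 was 2, 10, 3, 3 and 2 over the same steps, so 10 of the 20 high peaks of PVT1 lay from 100 to 200 kb downstream of MYC. No step of 100 kb beyond 500 kb held one. The median fold was 35.6 in the step from 100 to 200 kb and 9.28 in the step from 400 to 500 kb. The step from 400 to 500 kb combined the highest summit of the window with many low ones.

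The 5 highest peaks of the window all lay in PVT1. The highest, at 128175056 to 128178097, was in an intron, with a pileup of 230 and a fold of 119 (104.2 to 135.4), and stood at rank 33 among all peaks of the library. It lay 441 kb from the MYC TSS, near the 3′ end of PVT1. The next, at 127948864 to 127951235, reached 103 (89.3 to 118) in an intron 214 kb from the MYC TSS. The third, at 127851172 to 127853245, was exonic with a fold of 99.97 (86.4 to 115.0), 116 kb from the MYC TSS. The intervals of these peaks overlapped, so their order is not resolved. The remaining ones were also in introns, at 127869830 to 127871740 with a fold of 98.4 (85.0 to 113) and at 128182579 to 128183957 with a fold of 94.3 (81.2 to 109).

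The high peaks of PVT1 were compared with the MYC promoter itself, the gene that PVT1 enhancers are known to act on. In 16 PVT1 peaks the lower bound of the fold was above 52.4, the upper bound of the MYC promoter peak. The 20 high peaks had a median fold of 82.7 and a median width of 1748 bp (843 to 5032), compared with a median width of 522 bp over all peaks. They were chosen for their fold, and the width of all peaks of that fold was not set beside them. Nothing particular to PVT1 is therefore read from the difference in width. By class 14 were intronic, 3 exonic and 3 at a promoter of an internal transcript. They began 74.1 kb and ended 447 kb downstream of the MYC TSS, with a median spacing of 10.9 kb (2.24 to 65.8). High and low peaks were interspersed, as the median spacing of all PVT1 peaks was 3.62 kb and 26 of the 63 (41.3%) had a fold under 10, a share close to the 47.5% of all peaks.

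**Figure D3:**
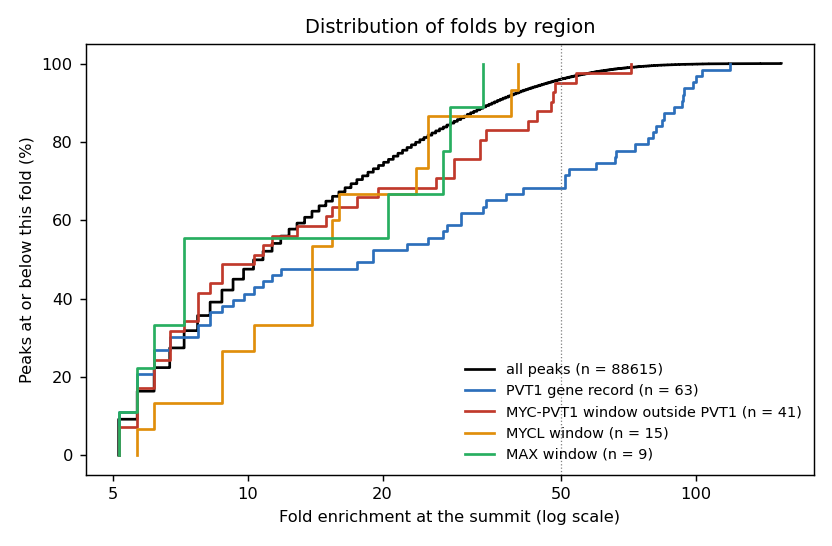
Curves give the percentage of peaks at or below each fold enrichment (log scale) for all 88615 peaks, the 63 peaks of the PVT1 gene record, the 41 other peaks of the MYC-PVT1 window, and the MYCL and MAX windows, with a dotted line at a fold of 50. The PVT1 curve runs to the right of the others from a fold of about 14 upward, with 31.7% of its peaks at 50 or more, compared with 3.94% of all peaks.

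The folds refer to 1 genome-wide background, so the level of the surrounding arm was set beside them. Over the rest of the long arm of chromosome 8, 325 of 3748 peaks (8.67%) had a fold of at least 50, the median fold was 10.3 and the 90th percentile 46.4, compared with 35.6 over all peaks. With PVT1 folds divided by the ratio of those percentiles, 1.30, 16 of the 63 peaks (25.4%) still reached 50. Divided by the ratio of the median folds, 0.952, 20 did. Beyond these scalings the part of the arm in the PVT1 folds was not tested.

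Among the 5106 genes of at least 100 kb, none had more peaks with a fold of at least 50 than PVT1. Next came TRIO, a guanine nucleotide exchange factor gene, with 10 among 89 peaks, and PRKAG2, a subunit gene of the AMP-activated kinase, with 9 among 38. Of these long genes, 83.1% had no such peak. In all peaks PVT1 was less extreme, since 5 long genes had more than its 63 and 23 were denser than its 16.0 per 100 kb, where the median was 2.44. No other of the 1439 lncRNA genes of this length had more peaks, and their median was 3. PVT1 made up 0.0134% of the sequenced bases and held 0.573% of all peaks with a fold of at least 50.

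**Figure D4:**
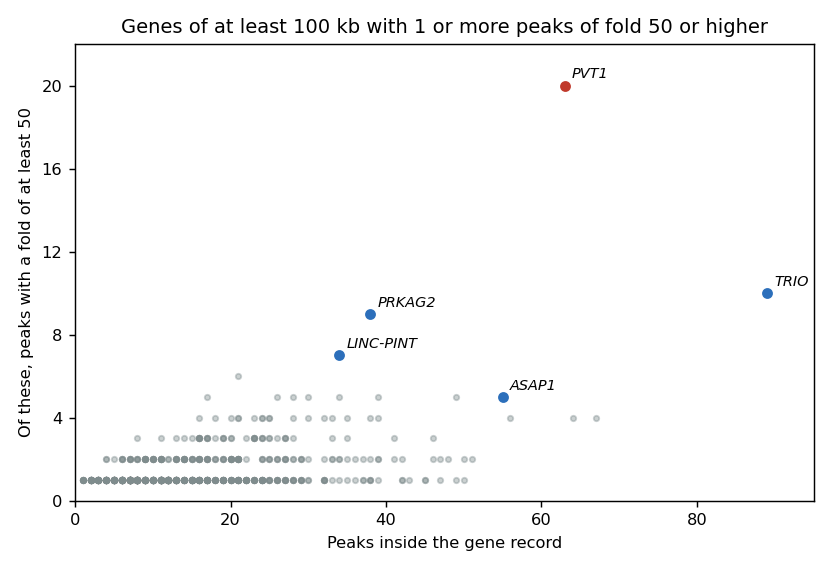
Each point is a gene of at least 100 kb with 1 or more peaks of fold 50 or higher (865 genes), placed by its number of peaks on the horizontal axis and its number of peaks with a fold of at least 50 on the vertical axis. PVT1 (red) stands at 63 and 20, above TRIO at 89 and 10.

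The other transcripts of the MYC-PVT1 window were examined for promoter peaks. Of its 25 annotated genes 6 had one, MYC and PVT1 included. Among its 12 lncRNA genes 3 had one, PVT1, CASC11 and ENSG00000286034, a share near the 21.9% of all lncRNA genes. Besides CASC11, the highest folds belonged to the small RNA gene ENSG00000278324 inside PVT1 (51.0; 41.5 to 62.1), whose peak also lay at a PVT1 start, and to the lncRNA gene ENSG00000286034 downstream of it (28.9; 21.9 to 37.4). PVT1 hosts 5 microRNA genes. MIR1204 lay within the peak at the first TSS of PVT1 and MIR1208 within a peak with a fold of 25.2 (18.8 to 33.3) whose summit was 1 bp from its start, whereas MIR1205, MIR1206 and MIR1207 were 6.95, 5.91 and 13.7 kb from the nearest summit.

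Upstream of MYC, the lncRNA genes CASC8 and CCAT2 mark a region known for inherited cancer risk. The 500 kb held 26.0 peaks per Mb (13.8 to 44.5), with a median fold of 8.76 (6.18 to 47.4). These intervals included the density of 38.4 per Mb and the median fold of 10.3 over the rest of the arm. CASC8 had 6 peaks, of which the highest reached 26.3 (19.6 to 34.5). The higher peaks of the 500 kb lay closer to MYC, in and beside CASC11. They included those at 127694232 to 127695912 with a fold of 71.6 (60.3 to 84.5) and at 127667825 to 127669240 with a fold of 47.4 (38.3 to 58.1). Downstream of PVT1, LINC00824 held 11 peaks, up to a fold of 48.4 (39.2 to 59.2) at 128541673 to 128542647.

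The windows of MYCL and MAX were described next, and the intervals of their densities overlapped. The MYCL window held 72.5 peaks per Mb (40.6 to 120), compared with 39.4 over the rest of its arm, and a median fold of 13.9. Its highest peak was not at the promoter but 32.7 kb upstream, intergenic, at 39934002 to 39935130, with a fold of 40.2 (31.8 to 50.1). That interval lay above the interval of the MYCL promoter peak. The 2 other genes of the window with a promoter peak were TRIT1, a transfer RNA modifying enzyme gene, with a fold of 13.9 (9.27 to 20.1), and MFSD2A, a lipid transporter gene, with 25.2 (18.8 to 33.3). The MAX window held 30.4 peaks per Mb (13.9 to 57.6), compared with 23.0 over the rest of its arm, and its highest peak was the MAX promoter. The promoters of CHURC1, with CHURC1-FNTB, and of FNTB, a farnesyltransferase subunit gene, had folds of 28.3 (21.4 to 36.8) and 27.3 (20.5 to 35.7). Inside MAX there was 1 further peak, in an intron, with a fold of 7.21 (4.08 to 12.0). The MYCL and MAX windows held no peak with a fold of at least 50 and none of 2 kb or more. Over the rest of their arms 4.48% and 0.555% of peaks reached that fold, and 3.66% and 1.92% were as wide. Nothing is read from these absences, since the windows held only 15 and 9 peaks.

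The outermost summits of the MYC-PVT1 window lay 18.2 and 144 kb inside its edges, with folds of 10.3 and 5.15, and the first ones outside lay 10.2 and 249 kb beyond, with folds of 21.6 and 5.15. At the MYCL window the outermost summits inside had folds of 38.6 and 5.67, and the first outside 14.4 and 28.9. At the MAX window these values were 28.3 and 20.6 inside, and 10.3 and 5.15 outside.

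To describe the proteins that share MAX, promoter peaks were counted in the MAX network. Of its 13 genes, 12 had a promoter peak (92.3%; exact 95% interval, 64.0 to 99.8), where 61.4% of all protein-coding genes had one, and their median fold was 32.7, compared with 25.8 over all protein-coding genes with one. The highest folds belonged to partners of MAX that repress. MXD1 reached 84.5 (72.1 to 98.4) and MXD4 71.1 (59.8 to 84.0), both with intervals above that of MYC. MXD3 at 37.1 (29.1 to 46.7), MXI1 at 34.0 (26.4 to 43.2) and the related repressor MNT at 31.9 (24.6 to 40.9) had intervals that overlapped those of MYC and MAX. MGA, which joins MAX to a Polycomb complex, was low at 10.3 (6.41 to 15.8).

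Another branch senses glucose and pairs with MLX rather than MAX. MLXIP, also called MondoA, had a fold of 22.7 (16.6 to 30.4), which overlapped the interval of MAX. MLX itself had 9.28 (5.62 to 14.5), and MLXIPL, known as ChREBP, 7.73 (4.46 to 12.6). The MLXIPL peak belonged to an internal TSS, and its canonical promoter had a fold of 5.15 (2.64 to 9.32), the lowest of the whole list of peaks. With the canonical transcript alone the count of the network fell to 10, as MGA and MLX had their peak at another TSS.

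**Figure D5:**
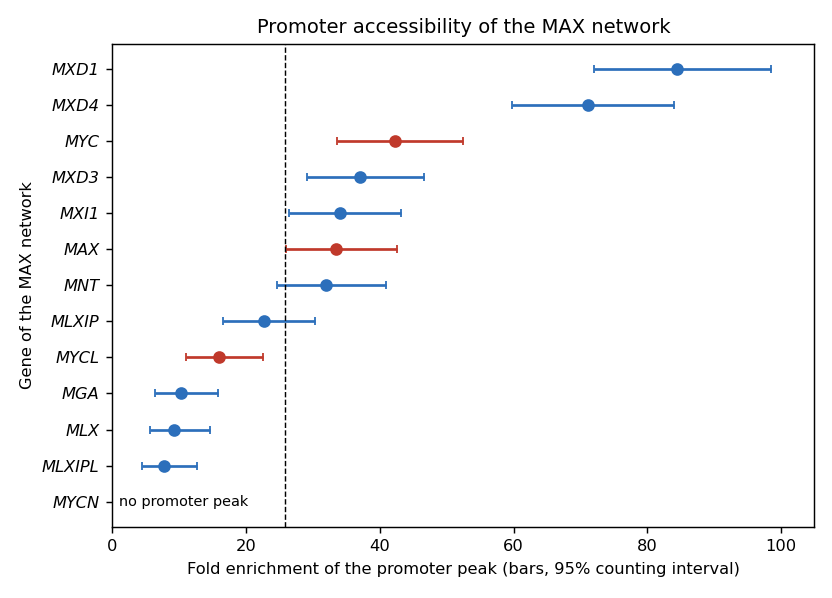
Points give the fold enrichment of the promoter peak of the 13 genes of the MAX network with exact Poisson 95% intervals of the pileup, in red for MYC, MYCN, MYCL and MAX, and a dashed line at the median of protein-coding genes with a promoter peak (25.8). MXD1 (84.5) and MXD4 (71.1) lie above MYC (42.3), and MYCN had no promoter peak.

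Among the cofactors and turnover factors of MYC, 14 of 15 genes had a promoter peak (93.3%; 68.1 to 99.8), with a median fold of 32.7. With the canonical transcript alone 12 of the 15 had one, whereas the 61.4% of all protein-coding genes counts any TSS. The highest fold was 101.0 (87.4 to 116) at SKP2, a ubiquitin ligase subunit gene, whose peak was shared with LMBRD2. The lowest was 10.3 (6.41 to 15.8) at WDR5, a subunit gene of histone methyltransferase complexes. TRRAP, the scaffold of histone acetyltransferase complexes that MYC recruits, had none, although a summit lay 445 bp from the nearest of its starts, past the 100 bp limit. Beside the same 61.4%, 12 of 13 known target genes of MYC had a promoter peak (92.3%, 64.0 to 99.8), with a median fold of 34.3. They ran from 62.3 (51.8 to 74.5) at CDK4, a cell cycle kinase gene, to 8.24 (4.84 to 13.3) at FBL, a nucleolar RNA methyltransferase gene. CCND2, which encodes a D-type cyclin, had none, and its nearest summit was 1541 bp from any of its starts.

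To see which motifs the summits shared, 6 were searched for, up to 50 bp to either side and on both strands. In the MYC-PVT1 window no summit held the E-box CACGTG (0 of 104; exact 95% upper bound, 3.48%), where 2.04% of all summits did, so at this number of peaks a share like that of all peaks was not distinguishable from none. The AP-1 motif TGACTCA was at 21 summits (20.2%; 13.0 to 29.2), where 15.7% of all summits held it, and the TEAD motif GGAATG was at 15 (14.4%; 8.30 to 22.7), where 9.41% did. Both intervals included the share of all summits. The hypoxia response core ACGTG, which is contained in the E-box, was at 5 summits (4.81%, where 7.04% of all did), the CTCF motif at 2 (1.92%, where 3.62% did) and the TCF/LEF motif ATCAAAG at 1 (0.962%, where 1.15% did). A match says only that these letters were present.

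Within PVT1, AP-1 was at 5 of the 20 summits with a fold of at least 50 (95% interval, 8.66% to 49.1%). This was close to the 26.0% of all intronic and intergenic summits of that fold. The sets were not alike, as the 20 included 3 exonic and 3 promoter summits. AP-1 was at 6 of the 43 lower PVT1 summits. None of the 20 held the CTCF motif, which 0.548% of all intronic and intergenic summits of that fold did, so nothing is read from this count. The 2 matches of the window lay in lower PVT1 peaks, at 127863776 to 127865054 (fold 19.1) and 127917272 to 127919396 (fold 37.6), both on the minus strand. The MYCL window had 2 CTCF matches on opposite strands, at the TRIT1 promoter and in the intergenic peak shown above, and 1 AP-1 match among its 15 summits.

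The E-box was also searched in the RefSeq promoters of 300 bases, 250 before and 50 after each start, where 8.89% of 15345 protein-coding promoters held it. In the MAX network 3 of 12 matched genes had one (MLX, MNT and MXD4), and among the MYC target genes 5 of 11 did (CDK4, EIF4E, FBL, LDHA and NME1), whereas none of 5 matched renal markers did. For the cofactor list the check is void, since only 11 of its 15 genes had a RefSeq promoter. The target genes with an E-box included both the highest and the lowest promoter fold of the target list.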

How the data were processed

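According to the study's methods and the submitters' processing notes, the authors used fastp for trimming and Bowtie2 2.3.4.3 for alignment to hg38, removed mitochondrial reads, low-quality alignments and duplicates, and called peaks with MACS2 2.2.6 on the library by itself, without a local background. A shift to the Tn5 cutting position is not given in the sources used here, so a summit may lie some bases from the insertion. The deposited ratio is the fold enrichment at the summit. The deposited −log10 p-value and −log10 q-value follow from the same pileup, and the deposited score (52 or more) is that q-value column multiplied by 10 and cut to a whole number. Of 88676 peaks, those on primary chromosomes were used. The depth in reads is not known, and a summit pileup is biased upward.

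Pileups were recovered from the folds as whole numbers to within 1.83e-05. Genes and starts came from GENCODE 44, sequences from hg38, and promoter sequences from RefSeq. Classes were taken from the summit, and the arm of a chromosome was split at its longest stretch without peaks. Shares carry Clopper-Pearson and medians order-statistic 95% intervals. The genes and lists were chosen with earlier results of these data known. The names given were each of the 5 genes, the 5 highest peaks of the MYC-PVT1 window, the highest of each other window, the 3 highest other promoters per window, the whole MAX network, and in the other lists the extremes and the genes without a promoter peak. Genes compared with PVT1 were named after their values were seen. Sequences of chromosome 8, 1 sequence of another chromosome, and 2 genes of the lists are not reported here, and the counts leave those genes out. The functions were tested on simulated data (Python 3.11.15, numpy 2.4.6, pandas 2.3.3, scipy 1.17.1, matplotlib 3.10.9).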

Additional observations from a re-analysis of the deposited data

How the results depend on the processing

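No paired analysis was possible because only 1 library was analysed here. Of 80 values recomputed for 26 results under other settings, 67 stayed within 1.5 times (counts) or within the 95% interval of the value (others), and 13 moved. Raising the score minimum removed low peaks, by construction. Above a score of 100 the median fold was 29.9 in the MYC-PVT1 window and 35.8 in PVT1, and the MAX window kept 4 peaks with a median of 27.8 in place of 7.21, which lay within its wide interval of 5.67 to 28.3. Above a score of 200 these medians were 43.3 and 55.9, and the counts were 52 peaks in the MYC-PVT1 window, 34 in PVT1 and 4 in the MAX window. With windows of 50 kb to either side, MYCL had 8 peaks and MAX 5. With promoters of 2.5 kb to both sides, the MYC fold was 54.1, the value of the CASC11 peak. Within 100 bp of the summit the TEAD share was 23.1%, where 17.0% of all summits held it. With a fold of at least 80, a limit chosen after seeing the data, PVT1 held 12 high peaks, where 0.527% of all peaks reached it, and with 30, also chosen then, 24, where 13.8% did. The density of the MYC-PVT1 window was 2.37 times that of the genome, 2.17 times that of its chromosome, and 2.59 times that of the genome above a score of 200. By any overlap of the peak interval the MYCN window still held no peak. Low pileups limit the weak peaks here as elsewhere, since 36.5% of the 104 and 35.7% of all peaks had a pileup under 15, and without a replicate the spread between cultures is unknown.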

Other observations

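Of the 13 genes of at least 100 kb with 5 or more peaks of fold 50 or higher, 5 lay on chromosome 7, 2 each on chromosomes 1 and 8, and 1 each on chromosomes 3, 5, 10 and 17. Chromosome 7 held 5.37% of the 5106 genes of this length, chromosome 8 held 5.19% and chromosome 1 held 7.81%. On chromosome 8 the genes were PVT1 and ASAP1, an Arf GTPase-activating protein gene downstream of it, which had 5 among 55 peaks. LINC-PINT on chromosome 7, a lncRNA gene, had 7 among 34 peaks, and BCL10-AS1 on chromosome 1 had 6 among 21. These genes were chosen after their values were seen, and no test was made of their distribution.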
